A study of Mus musculus with 4 samples.

Results

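Transcripts of 10 genes that coat the lipid droplet or build and break down its triglyceride were followed in MG5 cells, a mouse microglial line, with and without the retinoid X receptor (RXR) agonist 6OHA. The genes were chosen by symbol: the perilipins Plin2, Plin3 and Plin4, the lipase inhibitors Hilpda and G0s2, the lipases Pnpla2 and Lipe, the lipase co-activator Abhd5, and the acyltransferases Dgat1 and Dgat2. They are 10 of the 45777 genes of the deposited table. The RNA-seq libraries came from MG5 cells grown in their medium blended with supernatant of the A1 astrocyte-like line. The submitters list the genotype of the cells as wild type, which was not checked here. In the 6OHA group (replicates 1 and 3) the cells had received 6OHA at 10 µM for 6 h, and in the control group (replicates 1 and 2) they were untreated. Nothing in the labels says whether the untreated cells were given solvent or whether replicates were cultured separately, so a p-value here reflects library-to-library spread that may be technical. All cells were of 1 line, 6OHA is known here only by its code name, and the series' bexarotene treatment is not analysed here.

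A lipid droplet is a store of triglyceride and sterol esters under a phospholipid layer to which coat proteins bind. DGAT enzymes add the last fatty acid to make triglyceride, perilipins shield the stored lipid, and the lipase ATGL (encoded by Pnpla2) removes the first fatty acid, helped by ABHD5 and held back by G0S2 and HILPDA. RXR pairs with the peroxisome proliferator-activated receptors (PPAR), which in many cell types raise transcription of droplet coat genes when fatty acids are plentiful, and microglia are known to gather droplets in aged and inflamed brain.

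Total counts ran from 31057950 to 42541641 per library, and 14634 genes had enough counts to be tested. Of these, 295 passed edgeR's quasi-likelihood test at a Benjamini-Hochberg adjusted p under 0.05. Levels between genes are given as the deposited TPM, a scale per transcript length, and differences between groups come from the counts, shown as CPM, which are counts scaled by library size with TMM. Where a pair of values is given, the first is replicate 1, and the second is replicate 3 for 6OHA and replicate 2 for control. Of 12 listed microglial and macrophage markers, Csf1r and Cd68 stood at 1550 TPM or more in every library. The adipocyte genes Adipoq, Lep, Retn, Cfd, Plin1 and Cidec had 0 counts throughout. Libraries also differed with GC content. The median log2 deviation from the gene mean, in the highest decile of transcript GC content minus the lowest, was -0.16 and 0.12 with 6OHA and -0.22 and 0.26 in control.

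Plin2 and Hilpda rose, and none of the other 6 tested members passed the threshold in either direction. Plin2 was 4.31-fold and Hilpda 2.68-fold higher with 6OHA. Plin4 and G0s2 had 0 counts in all 4 libraries and were not tested. Thus 2 of the 8 tested members passed, where 2.02% of all tested genes did in either direction. Members were chosen with results of these data known, so this share carries no test. The median log2 fold change of the 8 was 0.07, beside -0.01 over all tested genes. In bulk RNA, fewer cells of a type and less RNA per cell cannot be told apart.

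The starts of Plin2, Hilpda and Abhd5 are printed because the first and second rose while the third, whose protein opposes HILPDA at the same lipase, did not pass. Each run is a RefSeq promoter window on GRCm38.p6, from 250 bases before an annotated transcript start to 50 after it, on the gene's own strand. Capitals mark ACGTG, a form of the core of the hypoxia response element, and AGGTCA, the half-site that RXR and its partners bind, each on either strand. The other form of that core, GCGTG, was not searched for and is not marked. A match shows the bases only, and which factor binds there was not tested. The windows lie at chr4:86670010-86670309 on the minus strand for Plin2, chr6:29272376-29272675 on the plus strand for Hilpda (the second of its 2 windows) and chr9:122351366-122351665 on the plus strand for Abhd5.
Plin2: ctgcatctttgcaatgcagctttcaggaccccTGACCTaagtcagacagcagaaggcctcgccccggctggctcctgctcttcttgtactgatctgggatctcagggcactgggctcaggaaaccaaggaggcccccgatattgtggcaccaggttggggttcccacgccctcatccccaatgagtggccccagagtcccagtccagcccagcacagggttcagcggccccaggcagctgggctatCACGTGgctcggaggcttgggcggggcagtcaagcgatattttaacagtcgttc
Hilpda: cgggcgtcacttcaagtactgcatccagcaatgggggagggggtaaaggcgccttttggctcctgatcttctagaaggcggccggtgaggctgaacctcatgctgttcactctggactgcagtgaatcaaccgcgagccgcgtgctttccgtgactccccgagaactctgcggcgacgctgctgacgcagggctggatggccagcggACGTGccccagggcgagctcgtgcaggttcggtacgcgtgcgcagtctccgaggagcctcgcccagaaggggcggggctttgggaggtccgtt
Abhd5: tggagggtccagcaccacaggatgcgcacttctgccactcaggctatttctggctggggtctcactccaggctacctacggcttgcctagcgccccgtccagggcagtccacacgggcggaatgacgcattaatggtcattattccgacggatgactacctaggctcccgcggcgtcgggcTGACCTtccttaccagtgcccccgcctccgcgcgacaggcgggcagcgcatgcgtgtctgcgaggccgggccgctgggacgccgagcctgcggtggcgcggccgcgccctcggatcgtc
The Plin2 window held CACGTG, which contains ACGTG once on each strand and begins 4 bases before the start site, and TGACCT, the half-site read on the other strand, 218 bases before it. The Hilpda window held ACGTG once, 43 bases before the start, and its first window, at chr6:29272238-29272537, held none of the marked motifs. Abhd5 held TGACCT 69 bases before its start. Of 32851 windows of all genes, 19.6% held ACGTG and 16.3% held AGGTCA on either strand. Of the 13565 windows of tested genes, 25.01% and 13.0% did. A direct repeat of AGGTCA with any 1 base between the copies, the element bound by PPAR with RXR, was in 13 of the 32851 windows, and the repeat with any 4 bases between, bound by liver X receptors with RXR, was in 5. Neither was in a member's window. Only exact copies inside these windows were searched for, so altered copies, or copies farther from the start, would be missed. Of the 8 members with a window, G0s2, Pnpla2, Plin3 and Plin4 held none of these motifs, while Lipe held CACGTG in 1 of its 2 windows.

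Among the coat proteins, Plin2 encodes the perilipin found on droplets of most cell types, where it limits access of lipases. It lies on chromosome 4 from 86626910 to 86670217 (GRCm38, the assembly that mm10 names; Entrez gene 11520). Plin2 stood at 1782 and 1783 CPM with 6OHA, against 414 and 412 CPM in control. The groups lay far apart and replicates nearly coincided. The SD of 0.522 CPM in 6OHA and 1.49 CPM in control was below the counting error of 0.401% to 0.836% per library, so with n = 2 it understates the error. The log2 fold change was 2.11 (SE 0.09, 95% interval 1.92 to 2.30, edgeR adjusted p = 1.02e-06), and all 15 alternative fits gave between 2.05 and 2.11.

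On the per-length scale, Plin2 stood at 2132 ± 7.79 TPM in 6OHA and 500 ± 12.3 TPM in control (SD, n = 2). It ranked 37 among all genes by TPM in both 6OHA libraries, and 276 and 289 in the control libraries. The gain of 1632 TPM between group means was the largest of any gene in the table, ahead of 1558 TPM for Ctsd, the gene of the lysosomal protease cathepsin D. On the count scale the order was the other way, with 1447 CPM gained by Ctsd and 1369 CPM by Plin2. Among 2385 genes with a mean of at least 100 CPM, Plin2 had the largest log2 fold change. Of the distinct 31-base stretches of Plin2 transcripts, 5.16% also occur in other genes. Those found in Gm12551 make up 4.48% of the Plin2 stretches, and Gm12551 is a transcribed pseudogene that overlaps the 3' end of Plin2 on the same strand, with counts of at most 0.0765% of those of Plin2.

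Plin3 encodes a perilipin that moves from the cytosol to newly formed droplets. Its level was 104 and 121 CPM with 6OHA and 111 and 123 CPM without. The groups overlapped, and replicate 1 was the lower library in both. The log2 fold change was -0.05 (SE 0.11, 95% interval -0.29 to 0.18, adjusted p = 0.945), and its sign turned without 6OHA replicate 1 (0.05) and without control replicate 2 (0.03). Plin3 lies on chromosome 17 from 56278962 to 56290511, in the same region as Plin4 (56100587 to 56109948) and Plin5 (56111597 to 56117606).

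Plin4, a perilipin of adipocytes and muscle with a long repeat domain, was listed at 0 counts in every library, as were Plin1 and Plin5. Taking 3 counts as the most that a count of 0 allows, with counting error alone considered, the upper limit was 0.0705 to 0.0966 CPM depending on the library. Plin2 and Plin3 were therefore the detected perilipins. Plin2 made up 95.4% and 94.7% of summed perilipin TPM with 6OHA, and 81.9% and 80.3% in control. The share was higher in both 6OHA libraries, by 13.9 percentage points between means (exact permutation test, two-sided, p = 0.333, the smallest that 2 libraries against 2 allow).

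**Figure D1:**
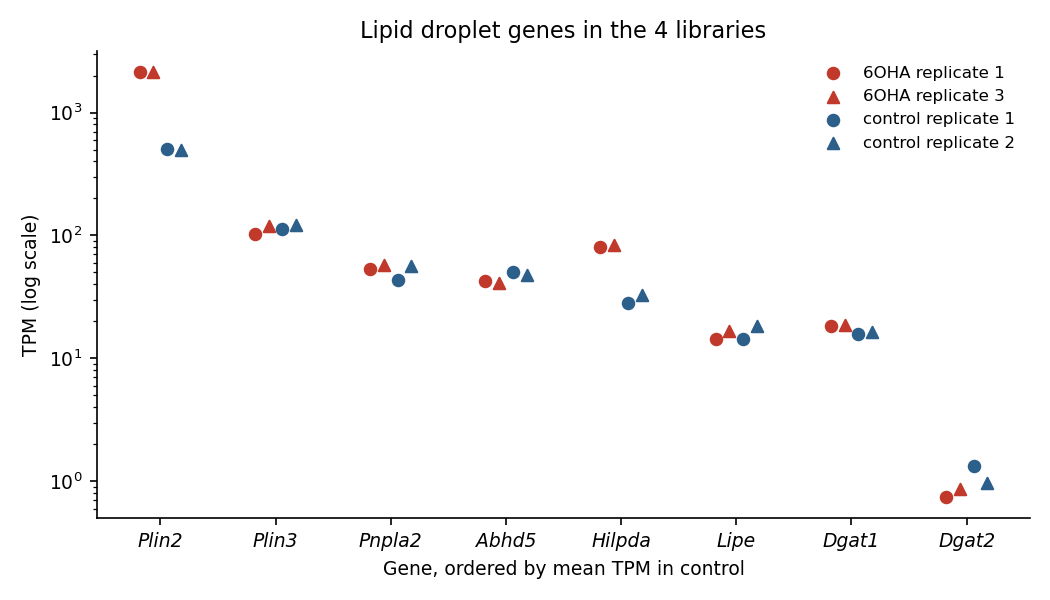
Level of the 8 detected lipid droplet genes in each library, as TPM on a log axis, with genes ordered by their mean in control (red, 6OHA; blue, control; circle and triangle, the replicates of a group). Plin2 at 2126 and 2137 TPM and Hilpda at 80.6 and 83.9 TPM in 6OHA lie above their control points, and the points of Plin3, Pnpla2 and Lipe intermingle.

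Of the lipase inhibitors, only Hilpda was detected. Hilpda encodes a small hypoxia-inducible protein that binds and inhibits ATGL. Its level was 36.7 and 37.4 CPM with 6OHA and 12.4 and 15.3 CPM without. Both 6OHA libraries exceeded both controls, and the controls differed more from each other than the 6OHA libraries did. The log2 fold change was 1.42 (SE 0.13, 95% interval 1.14 to 1.71, adjusted p = 0.000198), between 1.28 and 1.57 when 1 library was left out, and the call held in all 15 alternatives with an adjusted p of at most 0.00905. Hilpda (Entrez gene 69573) lies on chromosome 6 from 29272488 to 29275449. G0s2, the other peptide inhibitor of ATGL and a common PPAR target in liver and fat, had 0 counts in all 4 libraries, with the same upper limit as Plin4.

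Pnpla2 encodes ATGL, the lipase that starts triglyceride breakdown. Its level was 66.7 and 71.7 CPM with 6OHA and 52.2 and 69.7 CPM without. Control replicate 1 stood below the other 3 libraries, which lay close together. The log2 fold change was 0.19 (SE 0.13, 95% interval -0.11 to 0.48, adjusted p = 0.741). Leaving out control replicate 1 gave -0.01, and leaving out control replicate 2 gave 0.41 (adjusted p = 0.0767). Transcript GC content of Pnpla2 was 57.0%, and the part of the GC difference between libraries in its spread was not tested beyond the fit with a GC offset per library, which gave 0.21 (adjusted p = 0.160).

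Hilpda transcripts per Pnpla2 transcript, on the TPM scale, numbered 1.50 and 1.45 with 6OHA, against 0.648 and 0.586 in control. With G0s2 at 0 this is also the ratio of both inhibitors to the lipase. Hilpda was thus the more abundant transcript of the pair in both 6OHA libraries and the less abundant in both controls, a 2.39-fold higher mean ratio (exact permutation test, two-sided, p = 0.333, the smallest possible here).

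Abhd5 encodes CGI-58, the co-activator that ATGL needs and that perilipins can hold back. Its level was 64.3 and 61.4 CPM with 6OHA and 74.0 and 71.8 CPM without. Both 6OHA libraries were below both controls, yet the difference of -0.21 (SE 0.10, 95% interval -0.43 to -0.003, unadjusted p = 0.0476) did not pass over all genes (edgeR adjusted p = 0.449). Of its 31-base stretches, 15.3% also occur in A730085K08Rik, an annotated RNA of the other strand that had 0 counts. Lipe encodes hormone-sensitive lipase, which acts after ATGL on diglyceride and also splits sterol esters. Its level was 21.1 and 25.3 CPM with 6OHA and 20.7 and 28.0 CPM without. The groups overlapped, with replicate 1 lower in both, and the log2 fold change was -0.07 (SE 0.16, 95% interval -0.41 to 0.28, adjusted p = 0.956). Its sign turned without 6OHA replicate 1 (0.06) and without control replicate 2 (0.17). The antisense RNA 4732471J01Rik overlaps Lipe and shares 12.8% of its 31-base stretches. It had 44 and 47 counts with 6OHA and 57 and 45 without, against 649 to 973 for Lipe, and whether counting used strand is not stated.

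Dgat1 and Dgat2 encode unrelated enzymes for the same last step of triglyceride synthesis. Dgat1 was at 16.9 CPM in both 6OHA libraries and at 14.2 and 15.0 CPM in the controls. Both 6OHA libraries were above both controls, but the log2 fold change of 0.21 (SE 0.12, 95% interval -0.07 to 0.48, adjusted p = 0.640) did not pass. Dgat2 was near the limit of measurement, with 25 and 32 counts with 6OHA and 59 and 36 counts in control. Its 6OHA libraries were the lowest, at a log2 fold change of -0.49 (SE 0.34, 95% interval -1.24 to 0.26, adjusted p = 0.722), and the counting error alone was 13.0% to 20.0% per library. The value was -0.26 without control replicate 1 and -0.15 on log2(FPKM + 1). The ratio of Dgat2 to Dgat1 was 0.0409 and 0.0466 with 6OHA and 0.0841 and 0.0593 in control on the TPM scale (exact permutation test, two-sided, p = 0.333). Dgat1 was the main DGAT transcript in every library.

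**Figure D2:**
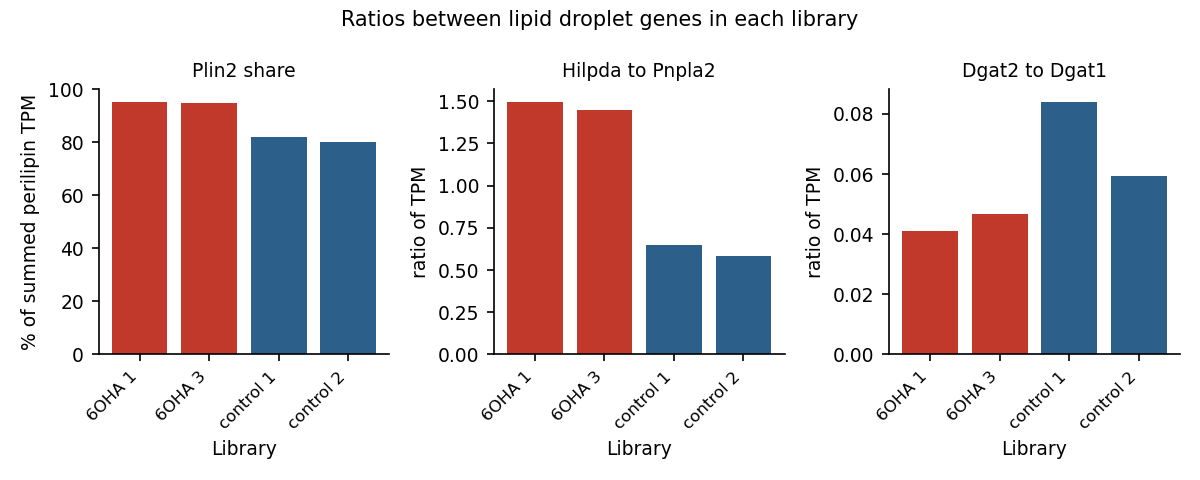
Ratios between lipid droplet genes in each library, on the TPM scale, with bars starting at 0 (red, 6OHA replicates 1 and 3; blue, control replicates 1 and 2). The Plin2 share of perilipin TPM and the ratio of Hilpda to Pnpla2 are higher in both 6OHA libraries, at 95.4% and 94.7% and at 1.50 and 1.45, and the ratio of Dgat2 to Dgat1 is lower in both.

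By mean TPM in control, the order was Plin2 (500 ± 12.3), Plin3 (116 ± 5.98), Pnpla2 (49.6 ± 8.91), Abhd5 (49.4 ± 2.04), Hilpda (30.4 ± 3.33), Lipe (16.4 ± 2.93), Dgat1 (16.0 ± 0.297) and Dgat2 (1.15 ± 0.260), each ± SD with n = 2. Pnpla2 and Abhd5 did not differ beyond their spread, nor did Lipe and Dgat1. In 6OHA, Hilpda at 82.2 ± 2.34 TPM came next after Plin3, above Pnpla2 at 55.9 ± 2.93 and Abhd5 at 41.9 ± 1.54 TPM, which there no longer lay within their spread. The summed TPM of the 10 genes was 2440 and 2476 with 6OHA and 774 and 784 in control, of which Plin2 made the larger part in every library. Groups did not overlap for 5 of the 8 tested members, beside 38.8% of all tested genes. Plin2, Hilpda and Dgat1 were higher in both 6OHA libraries, as were 18.7% of tested genes, and Abhd5 and Dgat2 were lower, as were 20.1%.

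**Figure D3:**
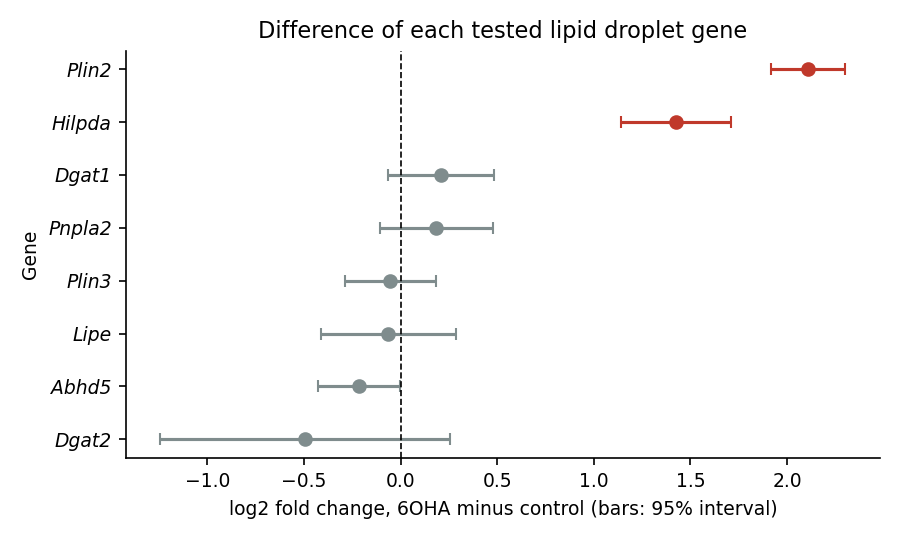
Difference of each tested lipid droplet gene on the log2 scale, 6OHA minus control, with 95% intervals from the edgeR fit (red, adjusted p under 0.05; grey, not passed). Plin2 at 2.11 and Hilpda at 1.42 lie far to the right of 0, and the other 6 lie between -0.49 and 0.21, the interval of Dgat2 being the widest.

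**Figure D4:**
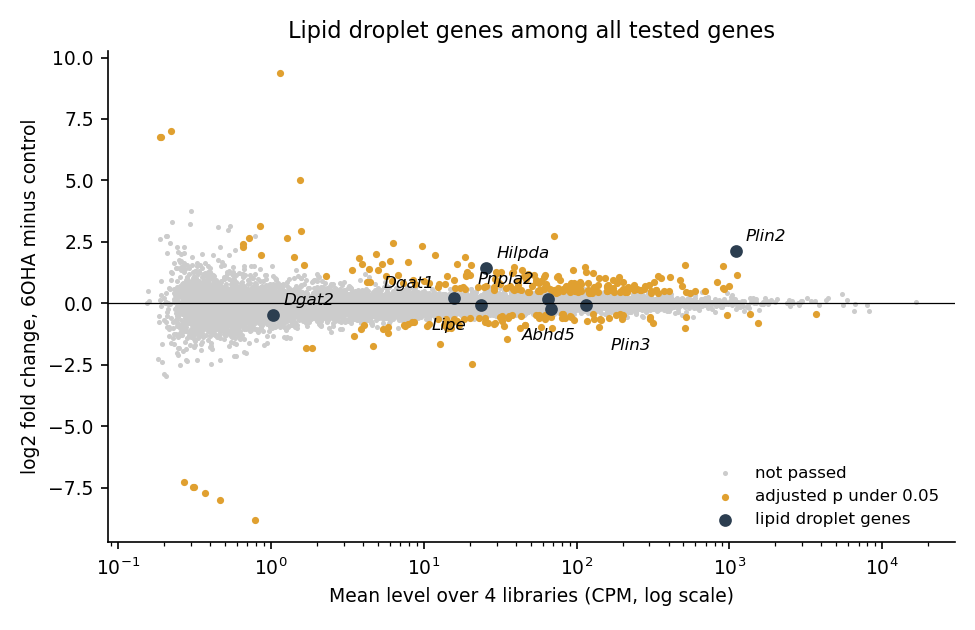
Log2 fold change against mean level (CPM, log axis) for 14634 tested genes (grey, not passed; orange, adjusted p under 0.05; dark, the 8 tested lipid droplet genes). Plin2 is the dark point at the highest level and the largest difference, and 6 of the dark points lie within the grey band around 0.

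Other genes of the droplet and its lipids were read from lists chosen with earlier results of these data known, and are given by counts beside the 1.39% of all tested genes that rose and the 0.629% that fell. Of 13 tested further droplet proteins, 0 rose and 0 fell by edgeR's quasi-likelihood test, with a median log2 fold change of 0.03. The most abundant were Aup1, which binds ubiquitin enzymes to droplets, at -0.04 (adjusted p = 0.958), and the dehydrogenase gene Hsd17b11 at 0.02 (0.976). Plin1, Plin5, Cidea, Cidec, Fitm1, Hsd17b13, Pnpla3 and Mettl7b had 0 counts.

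Of 13 tested genes of lipolysis and lipophagy, 2 rose and 0 fell, with a median of -0.05. Lipa, the acid lipase that digests droplet lipid inside lysosomes, was 1.43-fold higher at 487 and 462 CPM with 6OHA against 333 and 330 CPM in the untreated cells (log2 fold change 0.52, SE 0.09, adjusted p = 0.0103). The call was kept in 11 of 15 alternatives and lost without 6OHA replicate 1 (0.48, adjusted p = 0.0872). Ddhd1, a phospholipase gene, was 1.36-fold higher at 56.1 and 55.4 against 40.8 and 41.0 CPM (0.45, SE 0.10, adjusted p = 0.0477), a call that only 4 of 15 alternatives kept and that was lost without any 1 of the 4 libraries (adjusted p from 0.0530 to 0.312). The lipid carrier gene Fabp5, the most abundant of the list, was at -0.05 (adjusted p = 0.931).

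Of 21 tested genes of glycerolipid and sterol ester synthesis, 3 rose and 0 fell, with a median of 0.11. Acsl3, whose product activates fatty acids at forming droplets, was 1.67-fold higher at 119 and 121 CPM against 77.2 and 66.5 CPM (log2 fold change 0.74, SE 0.10, adjusted p = 0.00309) and passed in all 15 alternatives. Lpin1, which makes the diglyceride that DGAT enzymes use, was 1.88-fold higher at 7.37 and 8.90 against 4.50 and 4.15 CPM (0.91, SE 0.18, adjusted p = 0.0246), kept in 8 of 15. Its call was lost without 6OHA replicate 3 (adjusted p = 0.144), control replicate 1 (0.0518) or control replicate 2 (0.0589). Cd36, a fatty acid uptake receptor, was 1.40-fold higher at 852 and 756 against 598 and 547 CPM (0.49, SE 0.10, adjusted p = 0.0259), kept in 9 of 15 and lost without 6OHA replicate 1 (adjusted p = 0.254) or control replicate 2 (0.0645). The acyl-CoA synthetase gene Acsl4 was at 0.28 (adjusted p = 0.292).

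Since Plin2 and Hilpda are known as targets of PPAR and of hypoxia-inducible factors, other targets of each were counted beside them. A gene on either list may, like Plin2 and Hilpda, be a target of both, and which factor acted was not tested. Of 12 tested PPAR targets outside the droplet, 5 rose and 0 fell, with a median of 0.26. The 5 were Angptl4, an inhibitor of lipoprotein lipase, at 1.11 (SE 0.13, adjusted p = 0.00105), Cpt1a, which admits fatty acids to mitochondria, at 1.01 (SE 0.09, adjusted p = 0.000154), the carnitine carrier gene Slc25a20 at 0.88 (SE 0.11, adjusted p = 0.00127), Acaa2 of fatty acid oxidation at 0.55 (SE 0.10, adjusted p = 0.0172), and Cd36, which the synthesis list also holds. Acaa2 kept its call in 11 of 15 alternatives, but not without 6OHA replicate 1 (adjusted p = 0.146), and Angptl4, Cpt1a and Slc25a20 in all 15. The uncoupling protein gene Ucp2, the most abundant, was at 0.06 (adjusted p = 0.925), and Pdk4 had 0 counts.

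Of 13 tested hypoxia targets, 1 rose and 0 fell, with a median of 0.16. The riser was the vascular growth factor gene Vegfa, at 2.76 (SE 0.11, adjusted p = 1.02e-06). The glycolytic genes Ldha at 0.16 (adjusted p = 0.599) and Pgk1 at 0.11 (0.832) did not pass, nor did the transcription factor genes Hif1a at 0.40 (0.0634) and Epas1 at 0.39 (0.102). Hif1a passed in 3 of 15 alternatives and Epas1 in 2.

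**Figure D5:**
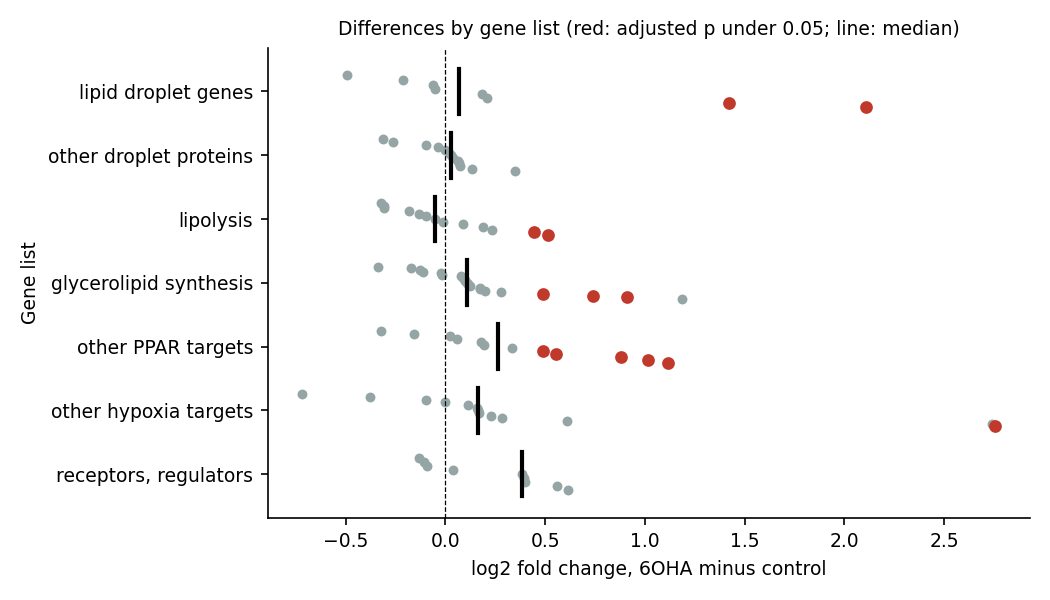
Log2 fold changes, 6OHA minus control, of the tested genes of each list (points; red, adjusted p under 0.05; black line, median of the list). The red points of the lipid droplet genes at 1.42 and 2.11 are Hilpda and Plin2, 5 of 12 other PPAR targets are red, and 1 of 13 other hypoxia targets, Vegfa at 2.76, is red.

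Transcripts of RXR, of receptors that can pair with it and of the regulator Srebf1 were measured in the same libraries. Rxra stood at 56.2 and 63.8 TPM with 6OHA and at 63.9 and 65.2 TPM in control, and Rxrb at 27.7 and 31.4 against 29.3 and 28.7 TPM. Ppard, at 22.8 and 25.9 against 24.2 and 28.3 TPM, was the one PPAR transcript at a measurable level, since Ppara and Rxrg had 0 counts and Pparg had 0 counts in 6OHA and 4 in each control library. The liver X receptor gene Nr1h2 stood at 39.9 and 47.9 against 44.1 and 53.4 TPM, and Nr1h3 below 0.67 TPM in every library. Rxra at -0.11 (adjusted p = 0.831), Rxrb at 0.04 (0.965), Ppard at -0.09 (0.908), Nr1h2 at -0.13 (0.858), Nr1h3 at 0.56 (0.783), Rara at 0.62 (0.0864) and Srebf1 at 0.38 (0.350) on the log2 scale did not pass, although Rara did in 4 of 15 alternatives.

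Likeness to the pattern of Plin2 over the 4 libraries was measured by the root-mean-square difference of centred log2 CPM. Among genes with a mean of at least 5 CPM, with clone-type names (Gm, LOC and Rik) left out, the nearest were Gpr35 (0.12), Hbegf (0.12), Col4a2 (0.19), Arg1 (0.19) and Per2 (0.22). With 4 libraries this measure mostly reads the size of the group difference, which was between 1.72 for Per2 and 2.47 for Arg1 on the log2 scale.

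The level of markers of other cell types varied by type, and of those tested only Map2 passed the threshold. The astrocyte genes Gfap, Aqp4 and Sox9 had 0 counts. The summed level of the 8 astrocyte markers was 10.0 and 10.4 TPM in 6OHA against 15.3 TPM in both controls. Aldh1l1 was at -0.46 (adjusted p = 0.128) and Slc1a2 at -0.72 (0.101), and the lowest of the 3 tested was at -1.09, which did not pass. The 5 neuronal markers summed to 4.51 and 5.87 TPM against 8.25 and 8.29 TPM, and among them Map2 fell by 0.76 on the log2 scale (adjusted p = 0.0273, kept in 8 of 15 alternatives and lost without 6OHA replicate 1, 6OHA replicate 3 or control replicate 1, at 0.140, 0.0638 and 0.0704), with Snap25 at -0.48 (0.379) and Rbfox3 and Syt1 at 0. The 5 oligodendrocyte markers summed to 47.7 and 49.3 against 43.1 and 41.7 TPM, led by Mbp at 0.31 (0.170) and Mag at -0.44 (0.319). The remaining tested marker was at 0.49 and did not pass, and Mog and Olig2 were at 0. Fibroblast markers summed to at most 0.0466 TPM, from Col1a1 alone, with Col1a2, Dcn, Pdgfra and Lum at 0. Of 7 adipocyte markers only Fabp4, which macrophages also express, was detected, at 58.9 and 66.5 TPM in 6OHA and 81.7 and 77.2 TPM in control (log2 fold change -0.33, adjusted p = 0.302). Of 12 microglial and macrophage markers, Cx3cr1 fell by 0.81 (adjusted p = 0.00257) and 11 did not pass. The part of these markers in the rise of Plin2 and Hilpda was not tested.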

How the data were processed

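The deposited table holds raw read counts per gene, per the file headers, which were not normalized. Its FPKM and TPM columns were made by the authors, per the file headers. The submitters' processing notes name mm10, StringTie 2.1.3b, SAMtools 1.9, Bowtie2, HISAT2 2.1.0, Trimmomatic 0.38 and bcl2fastq 2.20.0 without roles. How reads were assigned to genes, and whether strand was used, is not given in the sources used here, although the library kit keeps strand.

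Low genes were removed with filterByExpr, libraries were scaled by TMM, and 6OHA was compared with control by the quasi-likelihood test of edgeR 4.0.16, with Benjamini-Hochberg adjustment over 14634 genes. The 95% intervals come from that fit and are not adjusted. The alternatives used DESeq2 1.42.0 and limma 3.58.1 in R 4.3.3. Sums, ratios and plots used Python 3.11.15 with scipy 1.17.1, numpy 2.4.6, pandas 2.3.3 and matplotlib 3.10.9. The fit was also run on simulated counts whose spread was taken from these 4 libraries. Such a run cannot show how the fit behaves if the replicates are technical. The members, the lists and the tests were chosen with earlier results of these data known. Genes outside the 10 were named where they passed, were among the 2 most abundant of a list, were receptors or regulators, or were among the 5 nearest to Plin2 in pattern. Genes at 0 counts, neighbours and Ctsd were named after their values were seen. Promoter windows are from RefSeq on GRCm38.p6 and matched 8 of the 10 members. GENCODE M21 transcripts gave the shared 31-base stretches and the GC content, the latter for 93.3% of tested genes.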

Additional observations from a re-analysis of the deposited data

How the results depend on the processing

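In each of 15 alternatives, 2 members passed, Plin2 and Hilpda. The alternatives were scaling by upper quartile or by DESeq2 size factors, limma-voom, DESeq2's own test, the legacy mode of edgeR, a minimum mean of 5 CPM or no filter, log2 FPKM with 1 or 0.1 added, log2 TPM with 1 added, a GC offset per library, and each library left out. The number of all genes called, 295, became 120 with no filter, 135 on log2(FPKM + 1), 149 on log2(FPKM + 0.1), 152 on log2(TPM + 1) and 826 with the GC offset, and the cause was not tested. With 1 library left out, the lone library of its group being taken to vary as the remaining pair did, log2 fold changes ran from -0.16 to 0.051 for Plin3, from -0.010 to 0.41 for Pnpla2, from -0.27 to 0.17 for Lipe and from -0.66 to -0.26 for Dgat2. Dgat2 fell below the 5 CPM minimum and had no adjusted p in DESeq2's test. No paired analysis was possible because the groups share only replicate number 1. Depth limits Dgat2, Plin4 and G0s2 most.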

Other observations

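Around Plin2, 5 genes within 100000 bases were tested and 1 passed, the overlapping pseudogene Gm12551, which had 42 and 39 counts in 6OHA replicates 1 and 3 and 7 and 8 counts in control replicates 1 and 2 (log2 fold change 2.65, edgeR adjusted p = 0.0132). It lies on chromosome 4 from 86626857 to 86632221, and its reads cannot be separated with certainty from those of Plin2. Its neighbours Haus6 at -0.23 and Dennd4c at 0.12 did not pass. Around Hilpda none of 3 tested genes passed by the same test, the nearest being Fam71f2, which starts 2079 bases downstream and had 29 and 53 counts in 6OHA against 25 and 23 in control (1.00, adjusted p = 0.331). Near Plin3, 1 of 7 tested genes passed, Uhrf1, a gene of DNA methylation upkeep, at -0.57 (adjusted p = 0.0121). These genes were named after their values were seen.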
